A study of Mus musculus with 24 samples.

Results

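The 922 HindIII restriction fragments that begin 1 to 5 Mb below the 4C viewpoint 154.9 on mouse chromosome 4 were examined. They were taken from the deposited list of 42400 fragments of that chromosome as all those with a start between chr4:149951842-153951841 (mm9). The choice used position from the viewpoint and no count of the 922 fragments. The viewpoint itself was taken as the fragment with the highest pooled count. The list ends 0.678 Mb above the viewpoint, so fragments at this distance lie on its lower side alone. For comparison, 332 fragments lay within 1 Mb of the viewpoint, 3562 lay 5 to 20 Mb below it and 37581 lay further away.

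The libraries came from the mouse embryonic stem cell lines OCF2ΔYY1 and OCF2ΔOCT4/SOX2, here called the YY1 line and the OctSox line. Titles of other libraries of these lines name a mutated viewpoint (Mut_YY1 or Mut_OctSox) on another chromosome, and a wild-type Oct4 viewpoint. The titles do not say that the YY1, OCT4 or SOX2 proteins were removed. Both were of strain C57Bl/6 x 129/Sv at passage 7, and each was sampled at day 3 and at day 0, with 2 replicates that the labels call biological. The 4 groups were thus YY1 day 3, YY1 day 0, OctSox day 3 and OctSox day 0, with 8 libraries in all. The labels do not say what separates the days, whether a line is a single clone or whether replicates came from separate cultures, so p-values measure the spread between these libraries, which may be technical. Contact counts hold no expression, so the cell type could not be checked against markers. All groups share the viewpoint, the strain and the passage, and no unedited line was analysed here.

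In 4C, chromatin is crosslinked, cut and religated, and the fragments joined to one chosen viewpoint are counted by sequencing. Contact frequency falls with distance along a chromosome. At a range of megabases, departures from that fall are known to follow compartments and domains, in which stretches of similar chromatin meet each other more often than stretches between them. YY1 is a DNA-binding protein known for holding distant sites together, and OCT4 and SOX2 are pluripotency factors that bind DNA side by side. The counts average over many cells, so fewer cells with a contact and fewer ligations per cell cannot be told apart.

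The fragments had a median length of 2972 bp (28 to 27116 bp). Of the 922, 397 had counts in all 8 libraries, 450 in 4 to 7, 48 in 1 to 3 and 27 in none. Longer fragments were met in more libraries. With the members divided by length into 4 classes of about equal number, 22.4% of the shortest class and 58.9% of the longest had counts in all 8 libraries. The median of the mean level was 35.5 CPM in the shortest class and 68.7 CPM in the longest, where CPM is the count scaled to the library's total outside the viewpoint and its touching neighbours. Across the 922 fragments, Spearman's rho between length and mean CPM was 0.18, a description over fragments of the same libraries. At the far edge, the fragment at chr4:149956204-149957324 just inside the range averaged 31.6 ± 51.6 CPM and its neighbour just outside 17.0 ± 20.0 CPM (SD, n = 8). At the near edge, chr4:153942759-153966618 inside averaged 553 ± 373 CPM and the fragment just outside 333 ± 133 CPM.

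The share of contacts that fell in the range overlapped between days in both lines, and replicates differed widely in every group except YY1 day 0. In the YY1 line it was 10.9% and 4.53% of the counts outside the viewpoint at day 3, against 6.71% and 6.43% at day 0. The OctSox shares were 8.49% and 4.29% on day 3, against 3.88% and 9.95% on day 0. The day 0 pair lay between the day 3 pair in YY1, and the reverse held in OctSox. The shares rest on 72020 and 64303 counts in the 922 fragments in YY1 day 3, against 100382 and 107284 in YY1 day 0. They rest on 75159 and 45039 counts in OctSox day 3, against 37769 and 97599 in OctSox day 0. Wilson 95% binomial intervals were narrow beside these gaps, for example 3.84% to 3.92% for replicate 1 of OctSox day 0. Whether copies made by PCR were removed from these counts is not known, and the intervals cover counting error alone.

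Over both lines the share averaged 7.04% ± 3.20 at day 3 and 6.74% ± 2.49 at day 0 (SD, n = 4 each), a difference of 0.302 points. The difference was -0.527 points in the OctSox line and 1.13 points in the YY1 line, and an exact two-sided permutation of days within lines gave p = 0.944. Its sign turned without any 1 of 3 libraries: it was -1.28 without replicate 1 of YY1 day 3, -1.22 without replicate 1 of OctSox day 0 and -0.748 without replicate 1 of OctSox day 3. Between lines, the share averaged 7.13% ± 2.67 in YY1 and 6.65% ± 3.03 in OctSox (SD, n = 4 each; exact permutation p = 0.944). That difference of 0.483 points became -1.10 without replicate 1 of YY1 day 3, -1.03 without replicate 1 of OctSox day 0 and -0.567 without replicate 2 of OctSox day 3. The smallest p that the 36 arrangements allow is 0.0556, so no value tested this way could pass 0.05.

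Fewer of the 922 fragments were met at day 3 on average, but the days overlapped in both lines. In the YY1 line 89.2% and 77.9% of the 922 had at least 1 count at day 3, against 93.0% and 88.7% at day 0. OctSox libraries reached 80.9% and 63.6% on day 3, against 76.7% and 88.7% on day 0. Day 3 averaged 77.9% ± 10.7 and day 0 86.8% ± 7.01 (SD, n = 4 each), a difference of -8.89 points (exact permutation p = 0.278). After adjustment over the 8 exact tests run here, the smallest p was 0.622.

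Replicate 2 of OctSox day 3, the lowest library, stayed lowest at equal depth. After each library was thinned to 37769 counts over the 922 fragments, detection was 85.8% and 75.1% in YY1 day 3, against 89.4% and 85.6% in YY1 day 0. The OctSox values were 76.6% and 62.8% for day 3, against 76.7% and 85.2% for day 0. It had 0 counts at 66 fragments whose median in the other 7 libraries was at least 50 CPM, and every other library had 26 or fewer such fragments. One of them, chr4:153543324-153544627, had 0 counts there and 164 to 869 counts in the other 7 libraries.

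Counts were spread over many fragments. The 10 highest of the 922 held 8.93% and 15.0% of their counts in YY1 day 3, against 8.76% and 8.23% in YY1 day 0. They held 10.0% and 10.1% in OctSox day 3, against 11.5% and 7.81% in OctSox day 0. The difference between days was 1.93 points (11.0% ± 2.69 at day 3 and 9.07% ± 1.66 at day 0, SD, n = 4 each; exact permutation p = 0.389). Replicate 2 of YY1 day 3 was the least even library, in which 68 fragments held 50% of the counts, against 90 to 131 in the other 7.

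**Figure D1:**
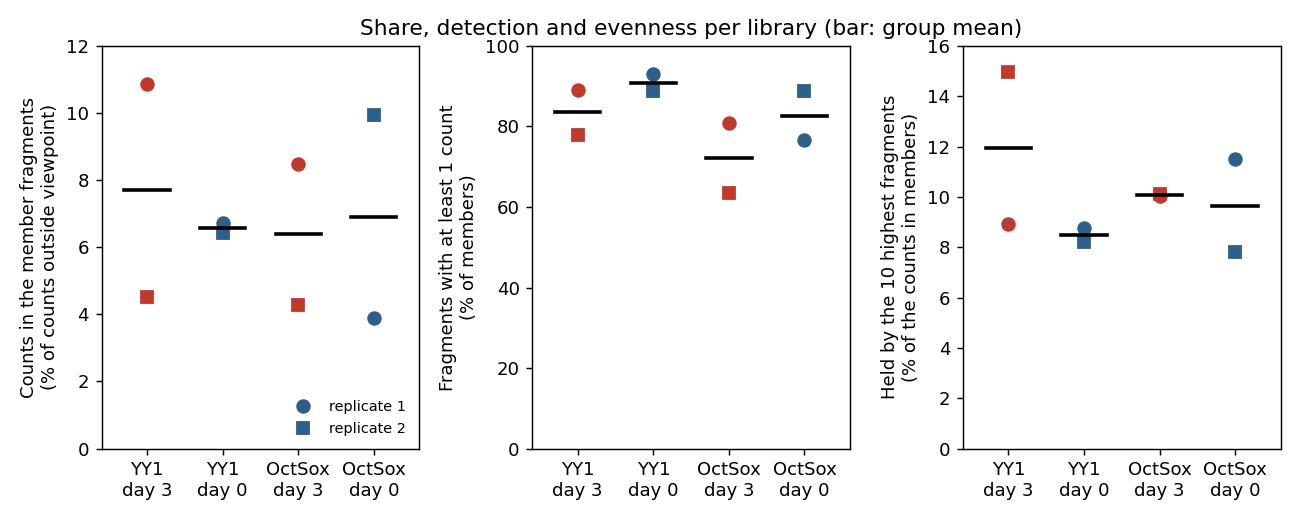
Each point is 1 library, placed by line and day, with a bar at the mean of each group. The left panel plots the percentage of counts outside the viewpoint that fell in the 922 fragments (3.88% to 10.9%), the middle panel the percentage of them with at least 1 count (63.6% to 93.0%) and the right panel the percentage of their counts held by the 10 highest (7.81% to 15.0%). Days overlap in both lines in the left and middle panels and in OctSox in the right panel, where both YY1 day 3 libraries lie above YY1 day 0.

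Summed in 40 fixed windows of 100 kb, with each fragment assigned by its start, the contact profile was far from a smooth fall with distance. Mean levels over the 8 libraries ran from 464 to 5235 CPM per window, an 11.3-fold span. The highest was the window nearest the viewpoint, chr4:153851842-153951841. The lowest was not the farthest but chr4:152051842-152151841, centred 2.85 Mb away. Between 3 and 4 Mb the counts were higher again. The window chr4:151451842-151551841, centred 3.45 Mb away, averaged 2950 CPM, against 493 CPM for chr4:152251842-152351841, which lies nearer at 2.65 Mb. The window at 3.45 Mb was higher than each of the 3 windows from 2.65 to 2.85 Mb in 8 of 8 libraries. The ratio ran from 2.84-fold to 33.2-fold against the window at 2.85 Mb, from 2.90-fold to 11.8-fold against that at 2.75 Mb and from 4.68-fold to 12.3-fold against that at 2.65 Mb.

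Grouped by distance, the stretch at 1 to 2 Mb (229 fragments) held 42.4% ± 4.51 of the counts in the range (SD, n = 8). The stretch at 2 to 3 Mb held 14.1% ± 2.88 although it has the most fragments, 249. The stretch at 3 to 4 Mb, with 208 fragments, held 26.4% ± 4.45, and that at 4 to 5 Mb, with 236, held 17.1% ± 3.07. The lowest share at 3 to 4 Mb among the libraries was 22.1% and the highest at 2 to 3 Mb was 17.3%, so these neighbours did not overlap. The shares at 2 to 3 Mb and at 4 to 5 Mb did overlap.

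**Figure D2:**
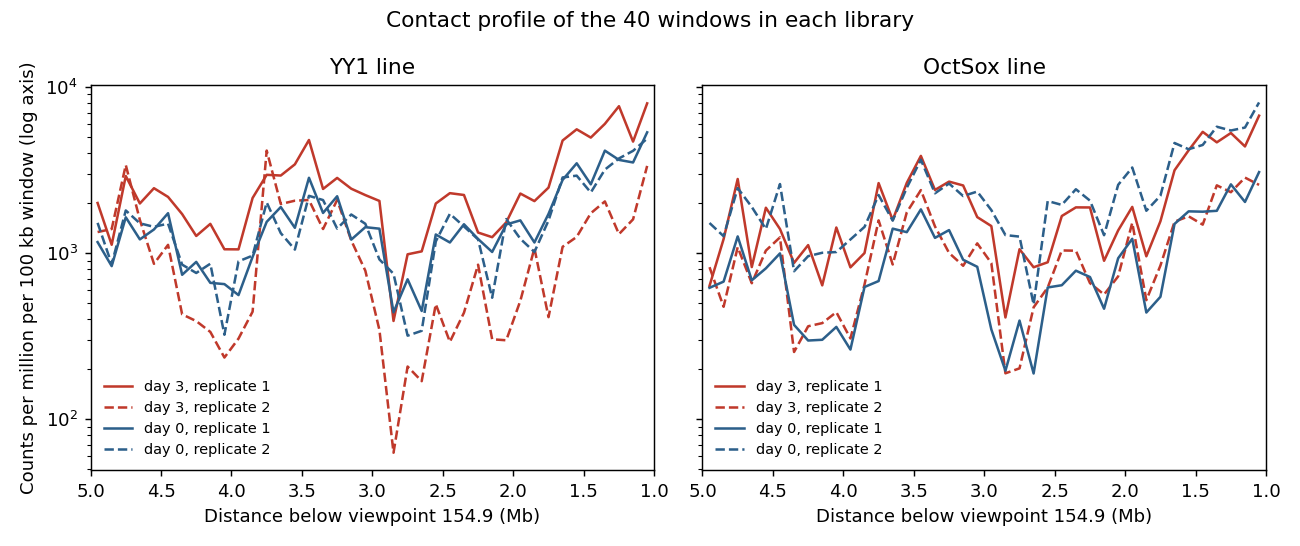
The level of each 100 kb window in CPM (log axis) is plotted against distance below the viewpoint in Mb, 1 line per library, for the YY1 line on the left and the OctSox line on the right. All 8 libraries dip between 2.6 and 3.0 Mb, where the lowest window averages 464 CPM, and are higher again near 3.45 Mb, where the mean is 2950 CPM.

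To set the windows beside each other at different distances, a line was fitted in each library to the logarithm of the window count against the logarithm of distance. The slope averaged -0.639 ± 0.309 at day 3 and -0.814 ± 0.0835 at day 0 (SD, n = 4 each; exact permutation p = 0.389). By line it averaged -0.620 ± 0.294 in YY1 and -0.834 ± 0.0764 in OctSox (SD, n = 4 each; exact permutation p = 0.167). Both differences rest largely on replicate 2 of YY1 day 3, with a slope of -0.184. Every other library lay between -0.925 and -0.734. Without that replicate the slope difference was 0.0372 by day and 0.0761 by line. The lines are fitted to the same windows they are set against, so distances from them are a description and carry no test.

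Of the 40 windows, 15 lay above the trend in all 8 libraries, 10 lay below it in all 8, and 15 were mixed. They formed stretches. The 7 windows from 1.05 to 1.65 Mb were above in 8 of 8 libraries, with means of 0.39 to 0.89 on the log2 scale. From 1.75 to 2.95 Mb every window had a mean below 0. From 3.05 to 3.75 Mb every mean was above 0, from 3.85 to 4.35 Mb every mean was below, and from 4.45 to 4.95 Mb every mean was above again. The value of a window and that of its neighbour correlated at r = 0.70 over the 40 windows, which share libraries and lie side by side.

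The window farthest above the trend was that at 3.45 Mb, at 2.56-fold the trend (log2 1.35 ± 0.24, SD, n = 8). Next came chr4:150151842-150251841 at 4.75 Mb with 2.32-fold (log2 1.21 ± 0.47). Then came chr4:151151842-151251841 at 3.75 Mb with 1.92-fold (0.94 ± 0.71), the window nearest the viewpoint with 1.85-fold (0.89 ± 0.41) and chr4:151351842-151451841 at 3.55 Mb with 1.76-fold (0.81 ± 0.52). The first 4 were above in 8 of 8 libraries and the last in 7. The last has only 10 fragments, the fewest of any window.

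The 3.45 Mb window had 4784 and 2082 CPM in YY1 day 3, against 2834 and 2207 CPM in YY1 day 0. It had 3838 and 2389 CPM in OctSox day 3, against 1829 and 3639 CPM in OctSox day 0. Days overlapped in both lines. Its highest single fragment held 12.3% to 25.8% of its counts by library, and the rest was spread over its other fragments.

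The deepest dip lay in 3 adjoining windows. The window at 2.85 Mb was at 0.265 of the trend (log2 -1.92 ± 0.94, SD, n = 8), chr4:152151842-152251841 at 2.75 Mb was at 0.396 (-1.34 ± 0.59), and that at 2.65 Mb was at 0.315 (-1.67 ± 0.53). A separate dip at chr4:152751842-152851841, 2.15 Mb away, was at 0.456 (-1.13 ± 0.27). These 4 were below the trend in 8 of 8 libraries. The fifth lowest, chr4:153051842-153151841 at 1.85 Mb, was at 0.580 (-0.79 ± 0.54) and below in 7 of 8.

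The number of fragments in a window, 10 to 35 with a median of 22, had little relation to its level (Spearman's rho 0.07 over 40 windows). With counts divided by the fragments in each window, the profile kept r = 0.915 with the profile of sums, the same sign in 39 of 40 windows and 4 of the 5 lowest windows, but only 2 of the 5 highest. When the number of fragments with any count replaced the counts, r was 0.362 and 24 of 40 windows kept their sign.

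**Figure D3:**
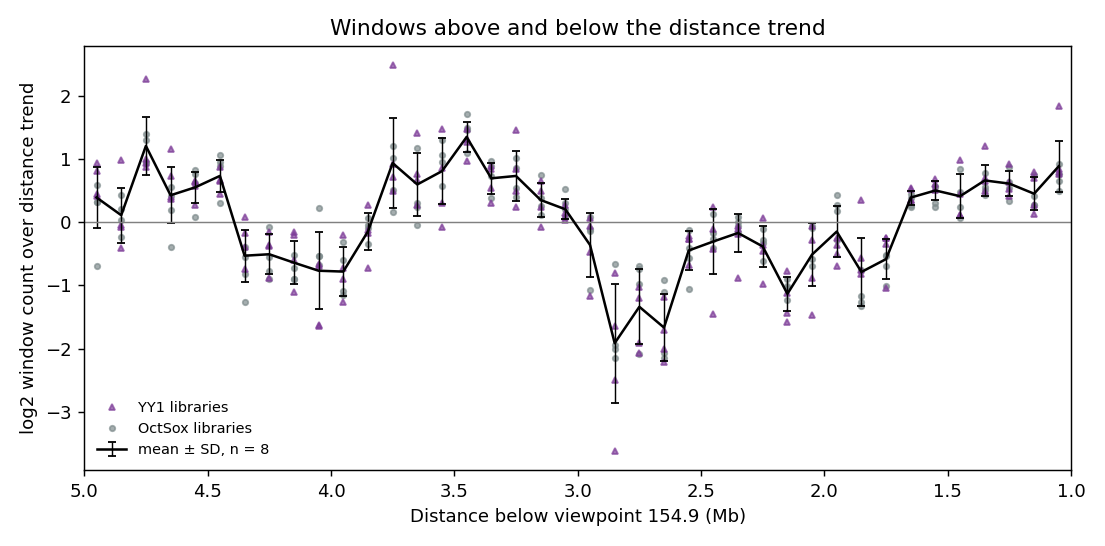
The log2 of window count over the distance trend is plotted against distance below the viewpoint in Mb. Triangles are the 4 YY1 libraries, circles the 4 OctSox libraries, and the black line with bars is the mean ± SD over 8 libraries. The means peak at 1.35 at 3.45 Mb and are lowest at -1.92 at 2.85 Mb.

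The same stretches stood out in all 4 groups. Group means of distance from the trend correlated at r = 0.848 to 0.914 between groups over the 40 windows. Between replicates, log window counts correlated at r = 0.762 to 0.891 (4 pairs, median 0.871), and between libraries of different groups at 0.618 to 0.931 (24 pairs, median 0.846). These values share windows and the fall with distance. By log window counts replicate 2 of YY1 day 3 stood apart, with a median r of 0.725 to the other 7 libraries. By distance from the trend it did not, with r of 0.757 to 0.855 to them. By that measure r was 0.651 to 0.914 between libraries of different groups and 0.811 to 0.879 between replicates. At single fragments replicates were less alike, with Spearman's rho of 0.465 to 0.709.

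The groups also differed in how counts were divided between the stretches, by less than the gap between the YY1 day 3 libraries. The stretch at 3 to 4 Mb held 30.7% ± 7.99 of the counts in YY1 day 3 and 23.5% ± 0.0362 in YY1 day 0 (SD, n = 2 each). The stretch at 2 to 3 Mb held 10.7% ± 4.40 in YY1 day 3 and 15.7% ± 0.197 in YY1 day 0. In OctSox the shares at 3 to 4 Mb were 26.8% ± 1.54 at day 3 and 24.5% ± 3.44 at day 0, and those at 2 to 3 Mb were 14.7% ± 0.234 and 15.4% ± 2.60. The 2 libraries of YY1 day 3 were unlike: replicate 1 had 25.0% of its counts at 3 to 4 Mb and 13.8% at 2 to 3 Mb, and replicate 2 had 36.3% and 7.62%.

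Day 3 was then compared with day 0 window by window, over all windows of the chromosome with enough counts, by quasi-likelihood tests in edgeR with p-values adjusted by Benjamini-Hochberg. In the YY1 line none of the 40 windows passed an adjusted p of 0.05, and neither did any of the 1345 windows tested on the chromosome (0%). All 40 had a negative fold change, with a median log2 of -1.08 beside 0.19 over all windows tested, and 9 of 40 had an unadjusted p under 0.05. The share of all windows with such a p was not counted, so nothing is read from the 9. DESeq2 passed 1 of the 40, the window at 2.85 Mb (adjusted p = 0.0486), and 2.35% of all windows. Under scaling to total counts the median of all windows tested was 1.41 and that of the 40 was 0.19, so the sign of the 40 depends on the scaling. Relative to all windows the 40 lay at -1.28 with TMM scaling and at -1.22 with total counts.

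The count of windows passed in YY1 rested on single day 3 libraries. Without replicate 1 of YY1 day 3, edgeR passed 33 of the 40 windows, all lower at day 3, beside 9.81% of all windows tested. Without replicate 2 of YY1 day 3 it passed 3 of the 40, also lower, beside 2.1% of all windows tested. The median of the 40 relative to all windows was -2.33 and -0.57 in these fits, in which the lone day 3 library is assumed to vary like the day 0 pair. The count filter kept 1417 and 1383 windows there, against 1345 with all libraries, and all 40 of the range in each. On the CPM scale both day 3 libraries lay above the day 0 pair in 6 of the 40 windows and below it in 1, beside 50% and 2.4% of all windows of the chromosome with counts.

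The window at 2.85 Mb, the lowest of the profile, had 258 and 89 counts (389 and 62.7 CPM) in YY1 day 3, against 657 and 1250 counts (439 and 749 CPM) in YY1 day 0. Both day 3 libraries were below both day 0 libraries. Its log2 fold change was -2.73 ± 0.86 (SE; edgeR adjusted p = 0.525). The windows at 2.25 Mb (-1.40 ± 0.44) and 1.15 Mb (-1.57 ± 0.50) had the other smallest p-values and did not pass (same adjusted p by edgeR).

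In the OctSox line none of the 40 windows passed, nor did any of the 1383 tested (0%), and none of the 40 had an unadjusted p under 0.05 by edgeR. DESeq2 also passed 0. The fold change was negative in 36 of 40, with a median of -0.39 beside 0.00 over all windows. That difference was 0.13 without replicate 2 of OctSox day 0 and 0.34 without replicate 2 of OctSox day 3, so its sign rests on those libraries. It was -1.41 without replicate 1 of OctSox day 0 and -0.89 without replicate 1 of OctSox day 3. The windows of the days overlapped in all 40, beside 19.2% of windows higher and 8.06% lower without overlap on the chromosome. The 2.85 Mb window had 362 and 198 counts in OctSox day 3, against 190 and 1256 in OctSox day 0, with overlap (log2 -1.50 ± 0.79; edgeR adjusted p = 0.999).

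With both lines in 1 fit and line as a term, none of 40 passed of 1467 windows tested (0%). Unadjusted p was under 0.05 at 8 of 40, a count without the share over all windows, from which nothing is read. DESeq2 passed none of the 40 (1.07% of all). The median was -0.71, beside 0.20 over all windows. The median relative to all windows was -0.91, and ran from -1.45 without replicate 1 of OctSox day 0 to -0.56 without replicate 2 of YY1 day 3. The 2.85 Mb window led with -2.04 ± 0.57 (edgeR adjusted p = 0.783), followed by the windows at 2.05 Mb (-1.46 ± 0.45) and 2.55 Mb (-1.11 ± 0.43). No window was without overlap between the days in either direction, beside 6.06% higher and 0.2% lower on the chromosome.

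**Figure D4:**
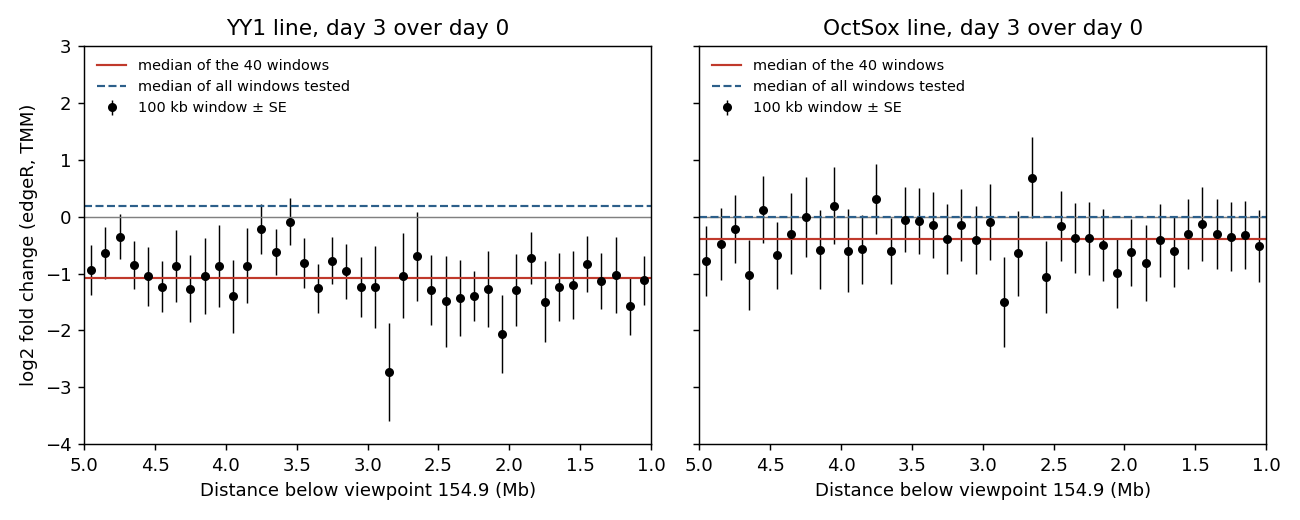
Log2 fold change of day 3 over day 0 (edgeR with TMM scaling) ± SE is plotted for each of the 40 windows against distance below the viewpoint in Mb, with the YY1 line on the left and the OctSox line on the right. The solid line is the median of the 40 windows (-1.08 and -0.39) and the dashed line that of all windows tested (0.19 and 0.00). No window passed the adjusted threshold.

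The range held fewer counts in sum than the longer stretch 5 to 20 Mb below the viewpoint, which has 3562 fragments. Per fragment the range held 1.80 to 3.17 times as many counts by library. The lowest was replicate 2 of YY1 day 3, and every other library was at 2.62 or more. The log2 ratio of the sums, range over that stretch, averaged -0.585 ± 0.364 at day 3 and -0.379 ± 0.0673 at day 0 (SD, n = 4 each), a difference of -0.206 (exact permutation p = 0.333). Replicate 2 of YY1 day 3 was at -1.10, and every other library lay between -0.561 and -0.284. Without that replicate the difference was -0.0285. Against the fragments within 1 Mb the log2 ratio averaged -3.18 ± 0.827 at day 3 and -3.49 ± 0.683 at day 0 (SD, n = 4 each; difference 0.313, exact permutation p = 0.778). That difference was -0.105 without replicate 1 of OctSox day 0 and -0.0543 without replicate 1 of YY1 day 3.

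Between lines, with day as a covariate, the 40 windows had a median log2 of 0.02 for YY1 over OctSox, beside -0.22 over all windows, with 21 positive and 19 negative. The difference of these medians, 0.24, was -0.23 without replicate 1 of OctSox day 0 and 0.56 without replicate 1 of OctSox day 3, so its sign rests on replicate 1 of OctSox day 0. None passed edgeR's adjusted 0.05 or an unadjusted p under 0.05, and DESeq2 passed none of the 40 (edgeR 0%, DESeq2 0.933% of all windows). The largest departures by p were the windows at 4.95 Mb (0.69 ± 0.38), 4.65 Mb (0.61 ± 0.38) and 4.35 Mb (0.63 ± 0.46), all with an edgeR adjusted p of 0.992. No window was without overlap between the lines, beside 0.533% higher and 1.53% lower on the chromosome.

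The day effect was also compared between lines by an interaction term (the YY1 day effect minus the OctSox day effect). None of 40 windows passed (0% of all tested), none had an unadjusted p under 0.05 by edgeR, and DESeq2 passed none of the 40 (0.2% of all). The term was negative in 36 of 40 windows, with a median log2 of -0.58, beside 0.29 over all windows. Scaled to total counts, these medians were 0.30 and 1.10, so here too the sign depends on the scaling. Relative to all windows the median was -0.86, and it ran from -1.74 without replicate 2 of OctSox day 3 to 0.095 without replicate 1 of OctSox day 0. Without replicate 1 of YY1 day 3 it was -1.66. The window at 1.15 Mb led by p, at -1.09 ± 0.76 (edgeR adjusted p = 0.992).

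At single fragments no member passed edgeR's test in any of 5 comparisons. For the day effect in YY1, 756 of the 922 passed the count filter, 14 had an unadjusted p under 0.05 and 0 of 6707 fragments on the chromosome passed (0%). In OctSox 677 were tested, with 3 under 0.05 and 0% passed, and over both lines 789, with 13 under 0.05 and 0% passed. Between lines 14 of 789 were under 0.05 with 0% passed, and for the interaction 21 of 789, with 0.0325% of all fragments passed. The shares of all fragments with an unadjusted p under 0.05 were not counted, so nothing is read from these member counts. DESeq2 passed no member in any of the 5, beside 0.0647% of all fragments for YY1 and 0.0056% for OctSox. It passed 0.281% over both lines, 0.307% between lines and 0.298% for the interaction.

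Median log2 values of the members tested were -0.50 by day in YY1, beside 0.05 over all fragments tested, and -0.26 in OctSox, beside -0.07. Between lines the median was 0.22, beside 0.40. None of these differences kept its sign when each library was left out in turn. Relative to all fragments the median ran from -2.97 (without replicate 1 of YY1 day 0) to 0.17 (without replicate 2 of YY1 day 3) in YY1. It ran from -1.50 (without replicate 1 of OctSox day 0) to 0.93 (without replicate 2 of OctSox day 3) in OctSox. Between lines it ran from -0.61 (without replicate 1 of OctSox day 0) to 0.20 (without replicate 2 of YY1 day 3). By day over both lines the median was -0.61, beside -0.15, and this difference of -0.46 stayed negative. It ran from -1.14 (without replicate 1 of OctSox day 0) to -0.26 (without replicate 2 of YY1 day 3). The interaction median was 0.07, beside 0.50, a difference that ran from -2.25 to 0.31. With 1 library left in a group, the count filter kept more fragments. In YY1 it kept 10692 without replicate 1 of day 0, against 6707 with all libraries. In OctSox it kept 9254 without replicate 1 of day 0, against 4840. These medians are thus over unlike sets of fragments, and the part of this in the turned signs was not tested. Scaled to total counts the YY1 member median was 0.04, beside 0.51, and by DESeq2 the OctSox median was -0.18, beside -0.21.

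Fragments whose libraries did not overlap on the CPM scale were counted as a description. Of 895 members with counts, 72 (8.04%) were higher and 141 (15.8%) lower at day 3 in YY1, beside 7.7% and 5.73% of all fragments with counts. In OctSox 76 (8.49%) were higher and 147 (16.4%) lower, beside 4.19% and 6.19%. Over both lines 3 were higher and 11 (1.23%) lower at day 3, beside 0.37% and 0.47%. Between lines 11 (1.23%) were higher and 5 (0.559%) lower in YY1, beside 0.945% and 0.181%. Fragments farther away are more often at 0, and ties at 0 count as overlap, so the shares are not on equal terms. The part of this in the differences was not tested.

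Without replicate 1 of YY1 day 3, edgeR passed 12 of 793 members tested (1.51%; 3 higher and 9 lower at day 3), beside 2.64% of all fragments tested. Without replicate 2 of YY1 day 3 it passed 8 of 814 (0.983%; 3 higher and 5 lower), beside 1.16%. With 1 library left in a group, the filter kept fragments with enough counts in any 1 library. In YY1 it kept 10470 and 9788 fragments in these fits, against 6707 with all libraries. The sets tested were therefore unlike, and nothing is read from these shares. Without replicate 1 of OctSox day 3 it passed 2 of 755 members in OctSox, both lower, beside 0.0743% of all fragments. Without replicate 1 of OctSox day 0 it passed 1 of 819 between lines, beside 0.0472%.

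The authors' deposited table of the YY1 day comparison holds 2536 entries, of which 11 have an adjusted p under 0.05 there (0.434%). Of these entries 517 lie in the range, and 2 of the 517 have an adjusted p under 0.05 there. The first is chr4:151222224-151225861, 3.73 Mb away, with a log2 of 3.38 in the authors' deposited table (adjusted p 0.00909). It had 120 and 1603 counts in YY1 day 3, against 51 and 61 counts in YY1 day 0. Both day 3 libraries were higher, and 1 of them held most of the counts. The fragments on either side had 6 and 129 counts in that library. In OctSox it had 146 and 22 counts at day 3, against 21 and 152 at day 0, with overlap. The fit made here gave a log2 of 4.25 ± 1.32 in YY1 (edgeR adjusted p = 0.639).

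The second is chr4:150018019-150022940, 4.93 Mb away, with a log2 of 3.61 in the authors' deposited table (adjusted p 0.0113). It had 353 and 137 counts in YY1 day 3, against 3 and 12 counts in YY1 day 0, so both day 3 libraries were higher without overlap. In OctSox it had 66 and 0 counts at day 3, against 29 and 10 counts at day 0. The fit made here gave 5.43 ± 1.50 in YY1 (edgeR adjusted p = 0.639). In the authors' deposited table of the OctSox day comparison, 393 of 1690 entries lie in the range, and none has an adjusted p under 0.05 (0%). There 2 have a p-value under 0.05, and the adjusted p is missing for 359. The median log2 of the members in the authors' deposited tables is -0.080 in YY1, beside -0.017 over all entries, and -0.0021 in OctSox, beside -0.020.

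The 6 fragments named for a lower day 3 value, by smallest p in the 3 day comparisons, lay 1.92 to 2.84 Mb from the viewpoint. None of them passed. The fragment chr4:152354795-152357989, 2.60 Mb away, had 0 and 0 counts in OctSox day 3, against 151 and 282 counts in OctSox day 0. Taking the pair at 0 as 3 counts in all, it was at least 143-fold lower on the pooled counts (edgeR adjusted p = 0.826). This covers counting error alone, with removal of PCR copies not known, and sets no bound on the change between days. In YY1 it had 82 and 2 counts at day 3, against 170 and 155 at day 0. As CPM these were 124 and 1.41 at day 3, against 114 and 92.9 at day 0, with overlap. The difference of the day effects between lines did not pass (edgeR adjusted p = 0.546).

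The fragment chr4:152441665-152441992, 328 bp long and 2.51 Mb away, had 0 and 0 counts in YY1 day 3, against 200 and 111 counts in YY1 day 0. On the pooled counts it was at least 68.2-fold lower, a value with the same limits (edgeR adjusted p = 0.639). In OctSox it had 50 and 0 counts at day 3, against 0 and 40 at day 0, so libraries at 0 occurred on both days. Over both lines chr4:152115549-152117981, 2.84 Mb away, had the smallest p among members. It had 8 and 0 counts in YY1 day 3, against 138 and 166 in YY1 day 0, and 2 and 2 counts in OctSox day 3, against 59 and 77 in OctSox day 0. The 4 day 3 libraries lay below all 4 day 0 libraries, and the log2 fold change was -5.09 ± 1.80 (edgeR adjusted p = 0.590).

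The line comparison was led by chr4:151835331-151836889, 3.12 Mb away. It had 142 and 186 counts in YY1 day 3 and 298 and 468 counts in YY1 day 0, against 0 and 0 counts in OctSox day 3 and 27 and 0 counts in OctSox day 0. All 4 YY1 libraries were above all 4 OctSox libraries, with a log2 of 6.11 ± 1.75 (edgeR adjusted p = 0.576). Replicate 1 of OctSox day 0 was the only OctSox library with counts there. Without it the log2 was 10.9, set against OctSox libraries all at 0, which adds no support for a line difference. The next by p were chr4:150196888-150197714 and chr4:150163964-150167052, which begin 32.9 kb apart in the window at 4.75 Mb. The first had 0 and 258 counts in YY1 day 3 and 29 and 108 in YY1 day 0, against 0 and 0 in OctSox day 3 and 0 and 1 in OctSox day 0. The second had 136 and 755 counts in YY1 day 3 and 119 and 45 in YY1 day 0, against 0 and 7 in OctSox day 3 and 0 and 18 in OctSox day 0. The lines did not overlap at the second and overlapped at 0 at the first (edgeR adjusted p = 0.576 for both).

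For the interaction, chr4:150329826-150332697 at 4.62 Mb had 52 and 426 counts in YY1 day 3, against 62 and 207 in YY1 day 0, with overlap. In OctSox day 3 it had 2 and 0 counts, against 43 and 92 in OctSox day 0. At chr4:150468806-150472474, 4.48 Mb away, the days ran the other way. It had 20 and 5 counts in YY1 day 3, against 300 and 24 in YY1 day 0, and 108 and 70 in OctSox day 3, against 0 and 2 in OctSox day 0. The days overlapped as CPM in YY1 and did not in OctSox. Neither difference passed (edgeR adjusted p = 0.546).

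**Figure D5:**
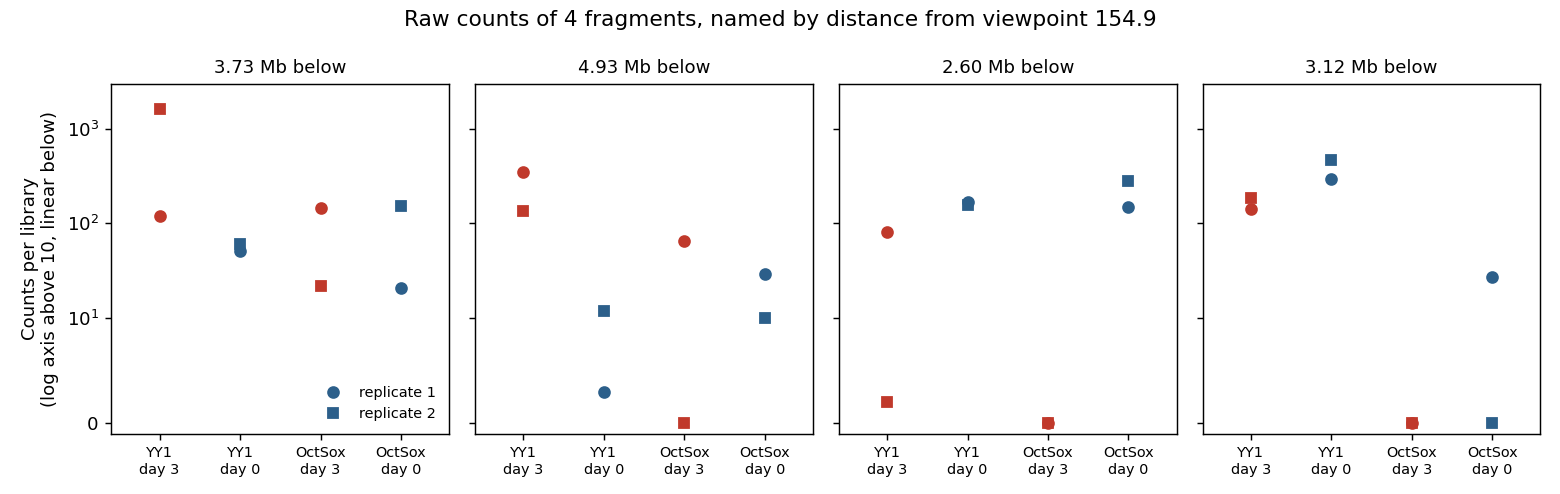
Raw counts per library of 4 fragments, named by their distance below the viewpoint, are plotted by line and day on an axis that is logarithmic above 10 and linear below. Circles are replicate 1 and squares replicate 2. From left to right the YY1 day 3 counts are 120 and 1603, 353 and 137, 82 and 2, and 142 and 186.

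The 10 most contacted fragments all lay 1.0 to 1.5 Mb from the viewpoint. The highest was chr4:153591913-153602573 with 571 ± 316 CPM (SD, n = 8), followed by chr4:153827907-153831134 with 556 ± 236 CPM. The next were chr4:153942759-153966618 with 553 ± 373 CPM and chr4:153751334-153761456 with 550 ± 325 CPM. The first had 803 and 118 CPM in YY1 day 3, against 414 and 469 CPM in YY1 day 0. It had 850 and 611 CPM in OctSox day 3, against 254 and 1046 CPM in OctSox day 0. Days overlapped in both lines. None of the 10 highest passed edgeR's test in any comparison. The top fragment of a library lay outside that stretch only in replicate 2 of YY1 day 3, where it was the 3.73 Mb fragment described above, at 2.49% of the counts in the range.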

How the data were processed

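Raw counts of reads on HindIII fragments and a list of fragment positions, joined by order, were deposited. Per the submitters' processing notes, Bowtie and mm9 were used; how reads were counted and filtered is not given in the sources used here. Coordinates are as deposited. Per the file headers, the authors' comparison tables hold p-values, log2 fold changes and a mean signal of scaled counts. Their log2 values run day 0 over day 3, and the sign was turned here. Their unnamed entries were placed by order among fragments whose median count was 40 or more (r of log means 0.996 and 0.998).

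The viewpoint was taken as the fragment with the highest pooled count, chr4:154951842-154952528. It and 1 neighbour per side were left out. Libraries held 1318028 to 2279333 counts, of which 662576 to 1669213 lay outside the viewpoint. Of 921 neighbouring pairs of members, 98 were further apart than the 6 bases of the cut site. Sequences and genes are not given, since no mm9 genome was used here.

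Fragments or windows kept by filterByExpr (minimum count 10) were tested over the whole chromosome with edgeR 4.0.16 in R 4.3.3 (TMM, quasi-likelihood F-test, Benjamini-Hochberg at 0.05), with DESeq2 1.42.0 as an alternative. The SE is the absolute log2 fold change over the square root of F. Single values were compared by exact permutation of 36 arrangements (scipy 1.17.1), adjusted over 8 tests. In simulated data edgeR recovered 0% of fragments and 7% of windows changed 4-fold in the YY1 day comparison (6667 fragments and 1343 windows), and 0% and 50% of those changed 16-fold. Named fragments and windows were the 3 with the smallest p per comparison where none passed, the 10 highest fragments, and the 5 windows farthest above and below the trend; the text takes the leading ones. Members and lists were chosen with earlier results of these data known. Alternatives were another scaling, filter, window grid and width, a cap, a replicate block and leaving out each library. Crossed blocks and the alternatives for the distance trend were added after seeing the data.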

Additional observations from a re-analysis of the deposited data

How the results depend on the processing

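Of 224 alternative values of the main comparisons, 199 were classed as unchanged. For the exact tests this meant the same direction and side of the threshold. For edgeR it meant a count of members passed that was equal or within 1.5 times, with direction not compared. The YY1 day windows with total counts were classed as unchanged although their median turned from -1.08 to 0.19. Since the main edgeR counts were 0 and no exact test could pass, much of this was fixed in advance and does not show stability. With fragments detected in place of counts, the day difference in share was -0.761 points and the line difference -0.386. In that setting the log2 ratio to 5 to 20 Mb was 0.0730, that to within 1 Mb -0.155 and the slope difference -0.0435. The window at 3.55 Mb lay at -0.858 from the trend there. The day difference in share was -1.46 with capped fragments and -1.76 with nothing left out at the viewpoint. These exact permutation tests passed in no setting, as the design allows none to pass. The causes were not tested.

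Leaving out each library in turn gave a day difference in share of -1.28 to 1.89 points and a line difference of -1.10 to 2.07. The log2 ratio to within 1 Mb ran from -0.105 to 0.730, that to 5 to 20 Mb from -0.384 to -0.0285. Detection ran from -13.2 to -4.56 points, the share of the 10 highest from 0.427 to 3.44 points, and the slope from 0.0372 to 0.312 by day and 0.0761 to 0.351 by line. Members passed by edgeR ran from 0 to 12 fragments and 0 to 33 windows by day in YY1, 0 to 2 fragments by day in OctSox and 0 to 1 fragment between lines. In the other 6 comparisons of many features the count was 0 throughout. In these fits a lone library is assumed to vary like the other groups. The count filter also kept more fragments and windows in them than with all libraries. The OctSox day effect at 2.85 Mb ran from -2.26 to 0.12 (log2), the highest without replicate 2 of OctSox day 0.

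Deviations of same-numbered libraries correlated between days at -0.05 and 0.01 over fragments and -0.20 and 0.07 over windows (OctSox, then YY1). Each value rests on a single pair of differences in noisy counts, so it cannot show whether same-numbered libraries were prepared together. With the replicate number as a block, edgeR passed 2 windows by day in YY1, those at 2.85 and 2.05 Mb, both lower at day 3, beside 0.892% of all windows. With crossed pairs, a choice made after seeing the data, it passed the same 2 windows in YY1, beside 0.297% of all, and 1 over both lines, at 2.85 Mb, beside 0.136%. DESeq2 passed 1 window in YY1. The block changed no other count of members passed.

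Power was low: the common dispersion was 2.06 to 3.66 for fragments and 0.890 to 1.35 for windows, so a count of 0 passed does not show that contacts did not differ. With 2 libraries per group, no group was large enough to look for outlying libraries.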
